A study of Homo sapiens with 4 samples.

Results

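Genes of cholesterol and fatty acid synthesis were examined in 22Rv1, a line of castration-resistant human prostate cancer cells, after an siRNA against the transcription factor OCT1 (siOCT1) or a control siRNA (siControl). The genes were taken as a list of 36 symbols for the enzymes and regulators of these pathways, chosen by function. Of these, 32 were read on all 4 arrays, out of 17687 named genes, and 29 passed the measured level (a highest signal over the 4 arrays above 6.51 on the log2 scale, the midpoint of these highest signals over the named genes), as did 8843 genes in all. ACSL1, ACSL4 and ME1 were read but lay under that level. FDFT1, FADS1, ACSL3 and TECR were not analysed here.

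Each of the 4 groups held 1 whole-transcript array of total RNA: siOCT1 with 10 nM dihydrotestosterone (DHT), siOCT1 with ethanol vehicle, siControl with DHT, and siControl with vehicle. In all 4 groups the cells were kept in medium with 2.5% hormone-depleted serum, transfected 48 h before hormone, and exposed to DHT or vehicle for 24 h. The labels do not say how many siRNAs stand behind siOCT1, and OCT1 itself is not analysed here, which leaves its depletion unchecked. The study looked at androgen-dependent expression in these cells after siRNA against OCT1.

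Cholesterol is made from acetyl-CoA through mevalonate, farnesyl diphosphate, squalene and lanosterol, and fatty acids are made from the same acetyl-CoA by carboxylation, chain building, desaturation and elongation. Most of these enzymes are transcribed under sterol regulatory element binding proteins (SREBPs), which the cell activates when sterols run low and which INSIG proteins hold back in the endoplasmic reticulum. SREBPs act together with NF-Y and Sp1 at promoters. In prostate cancer cells androgens are known to raise lipid synthesis, partly through SREBP activation, and FASN is a classical androgen-responsive gene there.

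Signals are the deposited log2 values, and differences are log2 differences on that scale. Array medians ran from 5.99 to 6.03, and the background of an array, the 95th percentile of its 612 negative control probe sets, from 6.62 to 7.39. Of the 29 measured genes, 27 lay above background on every array. Between 327 and 379 values per array exceeded 16, the log2 limit of a 16-bit scanner, among them all 4 of MSMO1 and the siControl DHT value of ELOVL5, so folds are folds on a scale that may be stretched. Luminal epithelial markers were present, with 7 of the 7 read (HOXB13, KRT8, KRT18, EPCAM, CDH1, FOXA1 and GRHL2) above background on all arrays, as the label of the line states. None of the 2 basal, 5 stromal, 4 immune and 3 endothelial markers read was above background on all arrays, nor were ADIPOQ, PLIN1 and APOA1, whereas ALB, the liver gene for albumin, was. ALB stood at 11.59 with DHT and 13.35 with vehicle in siOCT1 cells, against 9.36 and 11.04 in siControl cells.

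Most of the sterol and fatty acid synthesis genes measured were lower in siOCT1 cells. In the fit described next, 11 of 16 sterol enzymes and 5 of 9 fatty acid enzymes were called lower, against 15.3% of all measured genes. The additive limma fit of siRNA and ligand over the 4 arrays called 19 of the 29 measured genes lower and none higher after Benjamini-Hochberg adjustment over all genes (threshold 0.05), where 15.3% of all measured genes were called lower and 9.1% higher. At an unadjusted p under 0.05 the limma fit passed 22, adding MVK and ACACA lower and TM7SF2 higher. No share of all measured genes is given at that threshold, so the 22 has no background beside it. The median difference of the 29 genes was -1.19 with DHT and -1.05 with vehicle, against -0.07 and -0.06 over all measured genes. By size, 20 of the 29 were at least 1.5-fold lower in both ligand states (18.7% of all measured genes) and 1 at least 1.5-fold higher (12.2%). The 20 include MVK, whose vehicle difference rests on a value below background and is bounded only at 1.37-fold. With all values raised to the highest background the count was 19. For 24 both siOCT1 arrays lay below both siControl arrays (34.5% of all measured genes). These genes were listed with earlier results of the arrays known, so the counts describe the list and do not test it. With 1 array per group, the error of the fit comes from how far the siRNA difference varies between ligand states (1 residual degree of freedom), so p-values take no account of the spread between cultures. In this bulk RNA, fewer cells with a transcript and less of it per cell cannot be told apart. Of the negative controls, 18.6% differed by at least 1.5-fold in the same direction in both ligand states. ALB, the one marker of another lipid-making cell type above background, was 2.22 higher with DHT and 2.31 higher with vehicle in siOCT1 cells, and its part in the result was not tested.

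Promoter windows from RefSeq (GRCh38.p14, 250 bases before to 50 after each annotated start) were at hand for 25 of the 29 measured genes, 34 windows in all. None was at hand for ACAT2, FASN, SQLE and HSD17B12. Shown here are the 250 bases before the start for 3 genes that fell with siOCT1 (FDPS, MSMO1 and SCD), for the gene that DHT raised (ELOVL5), and for SREBF2, which encodes the SREBP that controls sterol genes and was not called in either comparison. Each is written 5′ to 3′ on the strand of the gene. Capitals mark the NF-Y box (CCAAT, which reads ATTGG where it lies on the other strand) and, in SREBF2 alone, first the octamer ATGCAAAT, the letters OCT1 is known to bind, then the sterol regulatory element (searched with any base at the sixth position), ahead of its NF-Y box.
FDPS (chr1:155308616-155308865, plus strand): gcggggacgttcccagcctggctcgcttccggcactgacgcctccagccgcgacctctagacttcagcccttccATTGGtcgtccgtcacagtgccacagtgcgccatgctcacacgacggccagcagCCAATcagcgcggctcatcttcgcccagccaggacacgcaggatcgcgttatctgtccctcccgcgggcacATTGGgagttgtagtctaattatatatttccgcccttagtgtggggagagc
MSMO1 (chr4:165327419-165327668, plus strand): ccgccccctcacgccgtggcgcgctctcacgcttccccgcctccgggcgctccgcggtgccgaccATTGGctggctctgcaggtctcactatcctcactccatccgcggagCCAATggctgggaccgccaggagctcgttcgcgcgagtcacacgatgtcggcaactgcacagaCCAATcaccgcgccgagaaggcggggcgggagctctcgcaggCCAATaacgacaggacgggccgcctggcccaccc
SCD (chr10:100346983-100347232, plus strand): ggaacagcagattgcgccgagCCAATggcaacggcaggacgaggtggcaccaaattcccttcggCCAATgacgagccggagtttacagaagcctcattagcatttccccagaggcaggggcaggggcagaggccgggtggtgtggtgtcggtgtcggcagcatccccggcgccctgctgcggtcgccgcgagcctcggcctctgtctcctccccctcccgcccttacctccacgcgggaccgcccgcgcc
ELOVL5 (chr6:53348951-53349200, minus strand): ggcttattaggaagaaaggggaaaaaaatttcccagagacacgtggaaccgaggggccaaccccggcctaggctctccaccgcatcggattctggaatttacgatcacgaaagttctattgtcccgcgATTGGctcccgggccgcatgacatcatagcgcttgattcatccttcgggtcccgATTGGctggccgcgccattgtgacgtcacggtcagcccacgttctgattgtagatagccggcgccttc
SREBF2 (chr22:41832855-41833104, plus strand): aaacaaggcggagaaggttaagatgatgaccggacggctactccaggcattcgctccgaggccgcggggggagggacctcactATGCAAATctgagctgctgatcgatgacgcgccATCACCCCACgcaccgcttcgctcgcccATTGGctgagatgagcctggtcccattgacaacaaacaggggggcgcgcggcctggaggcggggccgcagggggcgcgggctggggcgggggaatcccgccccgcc

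On both strands, an NF-Y box occurred in windows of 21 of the 25 genes (84%), against 42.1% of 15842 protein-coding genes with windows. Counted per window, 73.5% of the 34 held one, against 34.6% of all 35116 windows. A GC box (GGGCGG, the letters of Sp1 sites) occurred for 23 of the 25 genes (92%), against 64.3% of coding genes. The 3 genes that fell share between 2 and 4 NF-Y boxes each in the bases printed. Among the 16 fallen genes with a window 13 held an NF-Y box, and among the other 9 genes 8 did. Those 9 include MVK, ACACA, LSS and NSDHL, whose siOCT1 arrays both lay below both siControl arrays without passing the threshold. Whether the box goes with the fall was not tested. The octamer and the sterol element were each found in 1 of the 25 genes, SREBF2 in both cases, against 2.22% and 0.164% of coding genes. AGAACA, the core letters of androgen receptor sites, was in no window of the 25 genes, against 14.9% of coding genes. No matches of different motifs overlapped. A match is a description of letters in a short window, and nothing about binding follows from a match or its absence.

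Of the 6 mevalonate and isoprenoid enzymes 5 fell, against 15.3% of all measured genes, with medians of -1.46 with DHT and -1.47 with vehicle. ACAT2, the cytosolic thiolase that joins acetyl-CoA units at the head of the pathway, stood at 9.77 with DHT and 8.64 with vehicle in siOCT1 cells, against 11.74 and 11.56 in siControl cells. That is 3.91-fold and 7.60-fold lower, and the fit gave -2.45 ± 0.30 (SE of the limma fit, 4 arrays, adjusted p = 0.00403), the largest fall of the 29 genes. HMGCS1, which makes HMG-CoA, stood at 11.54 with DHT and 11.19 with vehicle in siOCT1 cells, against 13.26 and 13.05 in siControl cells. FDPS, which makes farnesyl diphosphate for sterols and prenylated proteins, stood at 12.19 and 11.82 in siOCT1 cells, against 13.99 and 13.95 in siControl cells. In both genes the siOCT1 arrays lay well apart from the siControl arrays, and DHT and vehicle lay close together within each siRNA. The fit gave -1.79 ± 0.22 for HMGCS1 (adjusted p = 0.00394) and -1.96 ± 0.21 for FDPS (adjusted p = 0.00282).

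IDI1, the isomerase that activates the isoprene unit, stood at 12.85 with DHT and 12.53 with vehicle in siOCT1 cells, against 14.04 and 13.29 in siControl cells. MVD, the decarboxylase before it, stood at 7.09 and 7.58 in siOCT1 cells, against 8.29 and 8.54 in siControl cells. Both fell by less than the enzymes above, -0.98 ± 0.22 for IDI1 (adjusted p = 0.0213) and -1.08 ± 0.28 for MVD (adjusted p = 0.0346). Mevalonate kinase (MVK) stood at 7.22 with DHT and, below background, at 6.77 with vehicle in siOCT1 cells, against 7.88 and 7.85 in siControl cells. It was 1.57-fold lower with DHT and at least 1.37-fold lower with vehicle, a difference that missed the threshold (adjusted p = 0.0806). FDPS, IDI1 and CYP51A1 have 10, 3 and 3 pseudogenes named after them in RefSeq, HSD17B7 and HSD17B12 have 2 each and SCD 1, and probes may not separate a gene from such copies.

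In the sterol branch proper, 6 of 10 genes fell and none rose, against 15.3% and 9.1% of all measured genes. SQLE, the squalene epoxidase that commits squalene to sterols, stood at 9.52 with DHT and 9.45 with vehicle in siOCT1 cells, against 11.16 and 11.52 in siControl cells. EBP, the sterol isomerase, stood at 12.19 and 11.88 in siOCT1 cells, against 13.73 and 14.08 in siControl cells. DHCR7, which carries out the last reduction to cholesterol, stood at 12.35 and 12.25 in siOCT1 cells, against 13.88 and 14.34 in siControl cells. In these 3 genes both siControl arrays lay above both siOCT1 arrays, with the siControl vehicle array highest. All 3 fell, with -1.85 ± 0.26 (SQLE), -1.88 ± 0.24 (EBP) and -1.81 ± 0.23 (DHCR7) and adjusted p of 0.00516, 0.00428 and 0.00417.

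MSMO1, the C4-methyl sterol oxidase, stood at 16.66 with DHT and 16.22 with vehicle in siOCT1 cells, against 17.73 and 17.63 in siControl cells. CYP51A1, the lanosterol demethylase, stood at 11.98 and 12.30 in siOCT1 cells, against 13.13 and 13.35 in siControl cells. HSD17B7, the 3-ketosterol reductase, stood at 9.85 and 9.95 in siOCT1 cells, against 10.87 and 10.82 in siControl cells. All 3 fell by similar amounts in both ligand states, with -1.23 ± 0.14 for MSMO1 (adjusted p = 0.00327), -1.10 ± 0.21 for CYP51A1 (adjusted p = 0.0138) and -0.94 ± 0.25 for HSD17B7 (adjusted p = 0.0353). HSD17B7 was called in 6 of 10 alternatives, with an adjusted p from 0.0352 to 0.173.

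Not every step of sterol synthesis passed the test. Lanosterol synthase (LSS) stood at 9.003 with DHT and 9.13 with vehicle in siOCT1 cells, against 9.26 and 9.44 in siControl cells (-0.28 ± 0.25, adjusted p = 0.447). NSDHL, the C4 decarboxylase, stood at 8.50 and 8.08 in siOCT1 cells, against 8.78 and 8.92 in siControl cells (-0.56 ± 0.28, adjusted p = 0.191). For both, the siOCT1 arrays were the lower pair without overlap. SC5D, the sterol C5 desaturase, stood at 9.67 and 10.20 in siOCT1 cells, against 9.99 and 9.47 in siControl cells, so the groups overlapped. TM7SF2, a C14 sterol reductase, was the one gene with both siOCT1 arrays above both siControl arrays (27% of all measured genes), at 11.63 and 12.22 in siOCT1 cells, against 11.05 and 11.49 in siControl cells. Its difference of 0.66 ± 0.23 missed the threshold in the limma fit (adjusted p = 0.0798). It passed in 1 of 10 alternatives, with arrays centred on the positive controls (adjusted p = 0.0444). That centring moved the median siOCT1 difference of all measured genes with vehicle to 0.16, against -0.06.

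**Figure D1:**
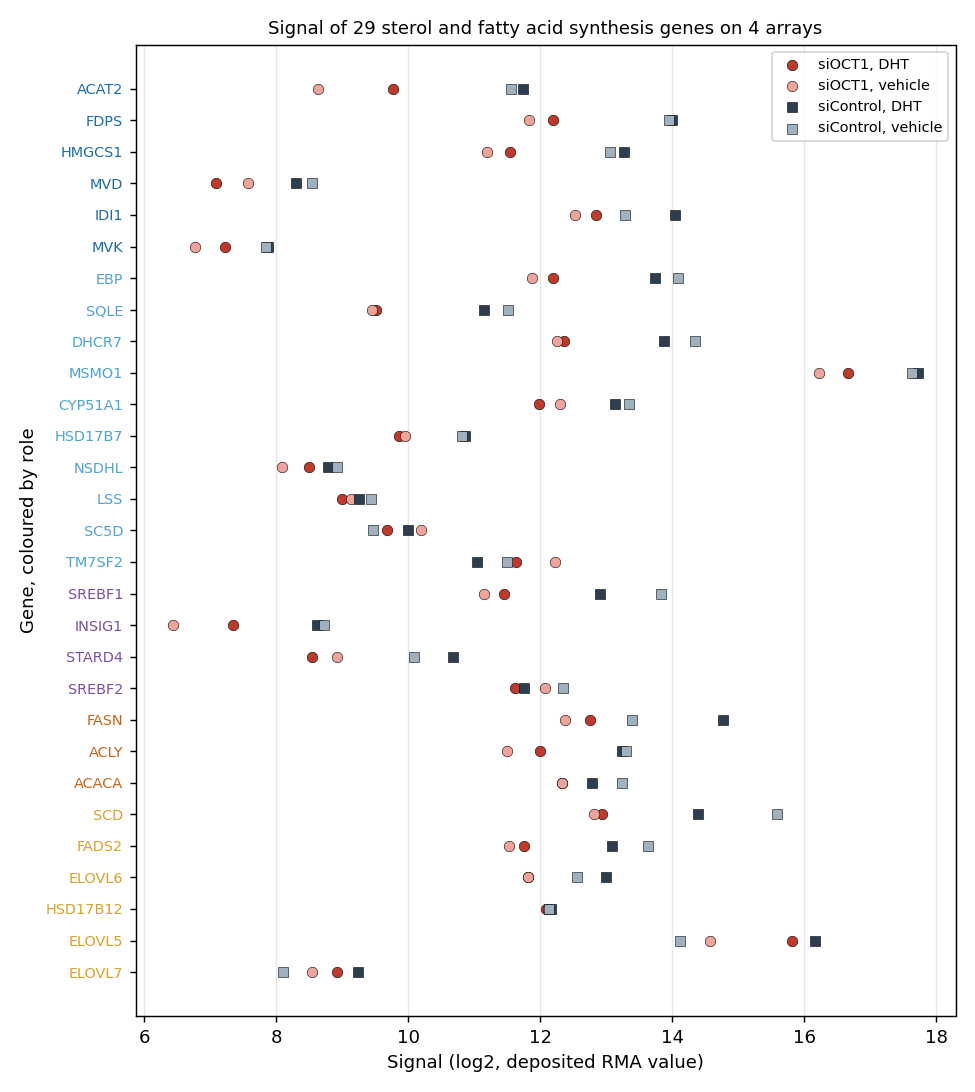
Log2 signal (x axis, deposited RMA value) of the 29 measured genes on the 4 arrays, 1 point per array, with red circles for siOCT1 and blue-grey squares for siControl, dark for DHT and pale for vehicle, and gene names coloured by role. The circles lie left of the squares for 24 genes, overlap them for SC5D, SREBF2, ELOVL5 and ELOVL7, and lie right of them for TM7SF2.

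The regulators divided. SREBF1, which encodes the SREBP-1 forms that control fatty acid genes, stood at 11.46 with DHT and 11.16 with vehicle in siOCT1 cells, against 12.90 and 13.83 in siControl cells. SREBF2 stood at 11.62 and 12.08 in siOCT1 cells, against 11.76 and 12.34 in siControl cells. SREBF1 was 2.73-fold lower with DHT and 6.39-fold lower with vehicle and fell in the fit (-2.06 ± 0.32, adjusted p = 0.00719), whereas SREBF2 differed by -0.20 ± 0.22 (adjusted p = 0.535) with overlapping groups. INSIG1, the sterol-induced retention protein and itself an SREBP target, stood at 7.34 with DHT and, below background, at 6.44 with vehicle in siOCT1 cells, against 8.62 and 8.73 in siControl cells. It was 2.43-fold lower with DHT and at least 2.52-fold lower with vehicle (-1.78 ± 0.34, adjusted p = 0.0135). STARD4, a cytosolic cholesterol carrier and SREBP target, stood at 8.54 and 8.92 in siOCT1 cells, against 10.68 and 10.09 in siControl cells. It fell (-1.65 ± 0.31, adjusted p = 0.013) and, unlike SREBF1 and INSIG1, differed more with DHT (4.38-fold) than with vehicle (2.25-fold).

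Of the genes for cytosolic fatty acid synthesis, 2 of 3 measured fell, against 15.3% of all measured genes. ACLY, which cleaves citrate to cytosolic acetyl-CoA and so feeds both branches, stood at 12.00 with DHT and 11.50 with vehicle in siOCT1 cells, against 13.23 and 13.29 in siControl cells. FASN, the fatty acid synthase, stood at 12.75 and 12.37 in siOCT1 cells, against 14.76 and 13.40 in siControl cells. ACACA, the acetyl-CoA carboxylase, stood at 12.33 on both siOCT1 arrays, against 12.78 with DHT and 13.24 with vehicle in siControl cells. Both ACLY (-1.51 ± 0.24, adjusted p = 0.00782) and FASN (-1.52 ± 0.27, adjusted p = 0.0113) fell. FASN was 4.04-fold lower with DHT and 2.04-fold lower with vehicle, the siControl DHT array being the one that stood apart. ACACA was lower on both siOCT1 arrays without passing the test (-0.68 ± 0.23, adjusted p = 0.0705). ME1, malic enzyme, lay below background on all 4 arrays, at 2.51 to 3.16.

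Among the desaturases and elongases, the 2 desaturases measured and 1 of 3 elongases fell, against 15.3% of all measured genes. SCD, the stearoyl-CoA desaturase that makes monounsaturated fatty acids, stood at 12.93 with DHT and 12.81 with vehicle in siOCT1 cells, against 14.38 and 15.59 in siControl cells. FADS2, the delta-6 desaturase of polyunsaturated fatty acids, stood at 11.75 and 11.52 in siOCT1 cells, against 13.09 and 13.64 in siControl cells. In both the siControl vehicle array was highest and the siOCT1 arrays nearly coincided. SCD fell (-2.11 ± 0.31, adjusted p = 0.00644), being 2.73-fold lower with DHT and 6.86-fold lower with vehicle, and FADS2 fell as well (-1.73 ± 0.26, adjusted p = 0.00663). ELOVL6, which elongates saturated and monounsaturated chains, stood at 11.81 and 11.82 in siOCT1 cells, against 12.99 and 12.56 in siControl cells (-0.96 ± 0.23, adjusted p = 0.0282).

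The other elongation genes did not share this fall. ELOVL5, which elongates polyunsaturated chains, stood at 15.81 with DHT and 14.57 with vehicle in siOCT1 cells, against 16.17 and 14.12 in siControl cells. ELOVL7, an elongase of long saturated chains, stood at 8.92 and 8.54 in siOCT1 cells, against 9.24 and 8.10 in siControl cells. In both genes siOCT1 arrays were lower with DHT and higher with vehicle, and the fit gave 0.05 ± 0.22 and 0.06 ± 0.30 (adjusted p = 0.895 and 0.9). HSD17B12, the 3-ketoacyl-CoA reductase of the elongation cycle, stood between 12.09 and 12.17 on all 4 arrays and moved least of the 29 genes (-0.04 ± 0.22, adjusted p = 0.908). The long-chain acyl-CoA synthetases ACSL1, at 3.86 to 5.87, and ACSL4, at 4.86 to 6.37, lay below background on every array, so no fold is given.

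**Figure D2:**
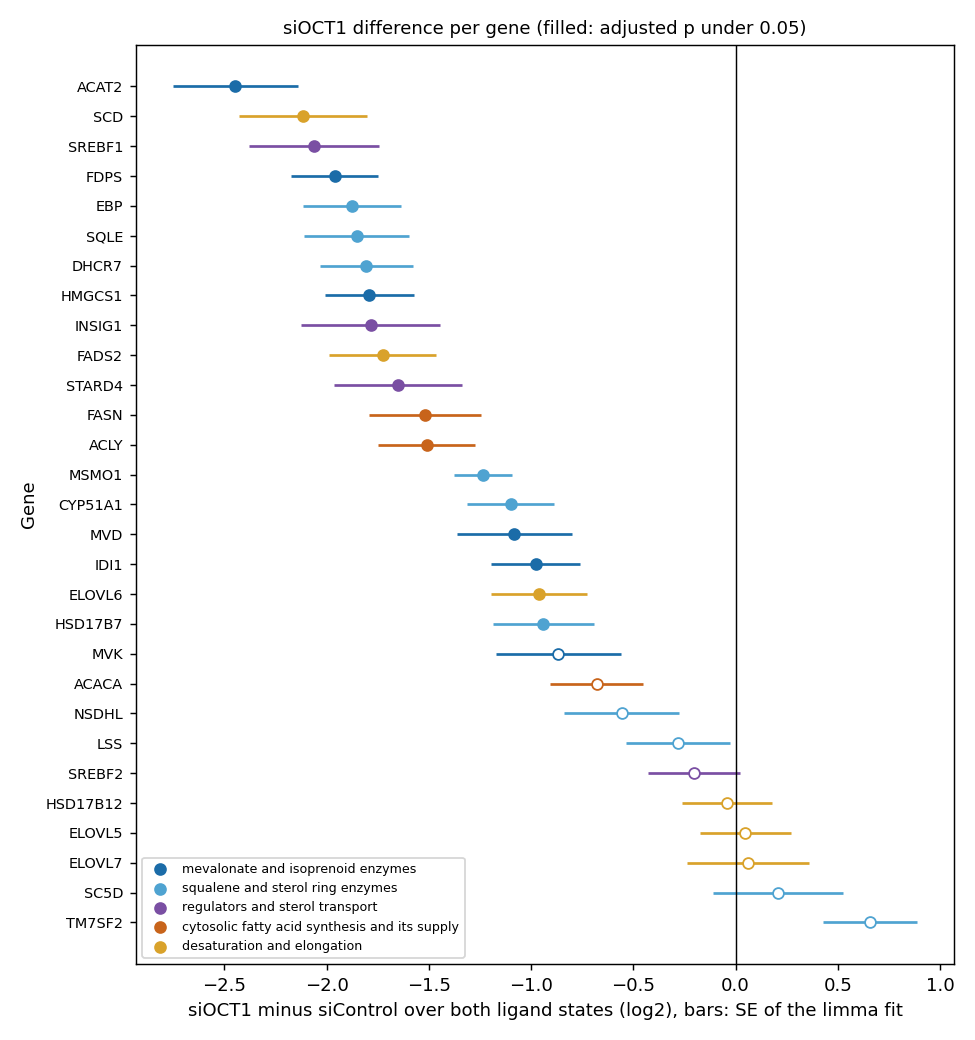
The siOCT1 minus siControl difference over both ligand states (x axis, log2, with the SE of the limma fit as bars) for the 29 measured genes, ordered by size and coloured by role, with filled points for an adjusted p under 0.05. The 19 filled points run from -2.45 for ACAT2 to -0.94 for HSD17B7, and TM7SF2 lies farthest right at 0.66.

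The siOCT1 differences with DHT and with vehicle share no array. Across the 29 genes they correlated with Pearson r of 0.79 and Spearman rho of 0.79, close to the 0.76 and 0.73 over all 8843 measured genes. The sign was the same in both for 26 of the 29 (89.7%), against 77% of all measured genes. This is a description across genes, which are not independent. The exceptions in sign were SC5D, ELOVL5 and ELOVL7, each below 0 with DHT and above 0 with vehicle. The difference was lower with vehicle than with DHT by 0.96 to 1.33 for SCD, SREBF1 and ACAT2. INSIG1 lay in this range by value, on a siOCT1 vehicle signal below background. FASN, STARD4 and SC5D lay farthest the other way, with the lower difference with DHT.

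**Figure D3:**
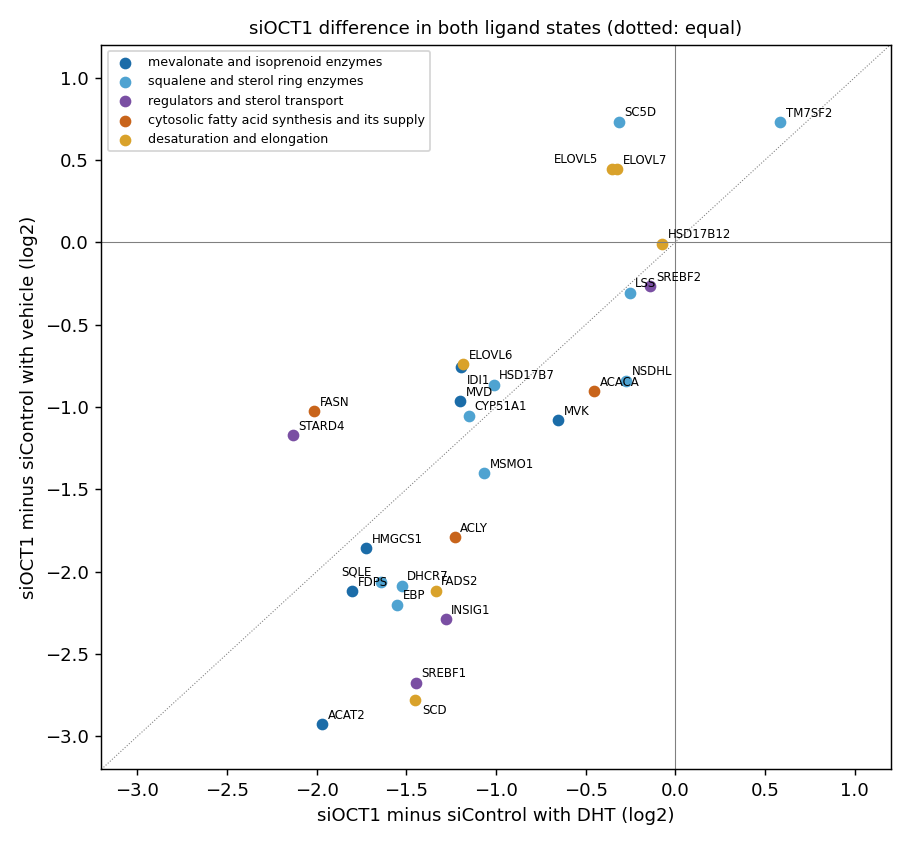
The siOCT1 minus siControl difference with DHT (x axis) and with vehicle (y axis), both log2, 1 point per measured gene, coloured by role, with a dotted line where both are equal. Most genes lie in the lower left, SCD, SREBF1 and ACAT2 below the line and FASN and STARD4 above it. The vehicle values of INSIG1 and MVK rest on siOCT1 signals below background.

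DHT moved few of these genes in the same way under both siRNAs. The fit called 1 of 29 higher, ELOVL5, and none lower, where 0.679% and 0.305% of all measured genes were called. An unadjusted p under 0.05 in the limma fit was found for 4 of the 29, with no share of all genes given at that threshold. The median DHT difference was 0.23 in siOCT1 cells and -0.06 in siControl cells, against 0.02 and -0.03 over all measured genes. By size, ELOVL5 was the 1 gene at least 1.5-fold higher under both siRNAs (4.86% of all measured genes) and none was lower under both (4.37%). It was 2.37-fold higher with DHT in siOCT1 cells and 4.14-fold higher in siControl cells, where the DHT value of 16.17 lies over the scanner limit (1.65 ± 0.22, adjusted p = 0.0286). ELOVL5 lost this call in 4 of 10 alternatives, with an adjusted p from 0.000141 to 0.607. For ELOVL5 and ELOVL7 both DHT arrays lay above both vehicle arrays (13.1% of all measured genes), and for SREBF2 both lay below (12.7%).

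In siControl cells, 4 of the 29 genes (13.8%) were at least 1.5-fold higher with DHT, which does not exceed the 15.8% of all measured genes. These were ELOVL5, FASN, ELOVL7 and IDI1. FASN was 2.58-fold higher with DHT in siControl cells, ELOVL7 2.21-fold and IDI1 1.68-fold. In siOCT1 cells FASN was 1.30-fold, ELOVL7 1.30-fold and IDI1 1.25-fold higher with DHT. Over both siRNAs none of these 3 passed the test, at 0.87 ± 0.27 for FASN (adjusted p = 0.24), 0.76 ± 0.30 for ELOVL7 (adjusted p = 0.342) and 0.53 ± 0.22 for IDI1 (adjusted p = 0.354). A further 3 genes (10.3%) were at least 1.5-fold lower with DHT in siControl cells, again no more than the 12.8% of all measured genes. They were SCD at -1.20, SREBF1 at -0.93 and SREBF2 at -0.59.

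In siOCT1 cells, ACAT2 differed by 1.14 with DHT, against 0.18 in siControl cells. Together with ELOVL5 and INSIG1 it made 3 genes at least 1.5-fold higher by value (10.3%, against 14.1% of all measured genes). INSIG1 has no fold in siOCT1 cells, since its vehicle value lay below background, and it differed by -0.10 in siControl cells. TM7SF2 at -0.59 was the 1 gene at least 1.5-fold lower (3.45%, against 11.8% of all measured genes). SCD stood at 0.13 and SREBF1 at 0.30 in siOCT1 cells. Of the 29 genes 15 (51.7%) had the same sign of DHT difference under both siRNAs, against 60.5% of all measured genes.

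The DHT difference in siOCT1 cells minus that in siControl cells gives 1 value per gene and cannot be tested here. It was positive by at least 1.5-fold for 6 of the 29 genes (17.5% of all measured genes) and negative for 5 (18%), shares near the background. Its median was 0.14, against 0.02 over all measured genes, and -0.0762 over the set with arrays centred on the positive controls, where 4 genes were positive and 7 negative. No share of all measured genes is given for that centring. The positive genes were SCD at 1.33, SREBF1 at 1.23, ACAT2 at 0.96, FADS2 at 0.78 and EBP at 0.65, with INSIG1 as the other one by value. The value of INSIG1 rests on a signal below background and became 0.10 once every value was lifted to the highest background, which left 5 positive genes. The negative genes were SC5D at -1.05, FASN at -0.99, STARD4 at -0.96, ELOVL5 at -0.80 and ELOVL7 at -0.77. Of the positive genes all but ACAT2 had their highest signal on the siControl vehicle array, and of the negative genes all but SC5D had it on the siControl DHT array. Each array enters both the siRNA and the ligand difference, so these are not separate observations.

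**Figure D4:**
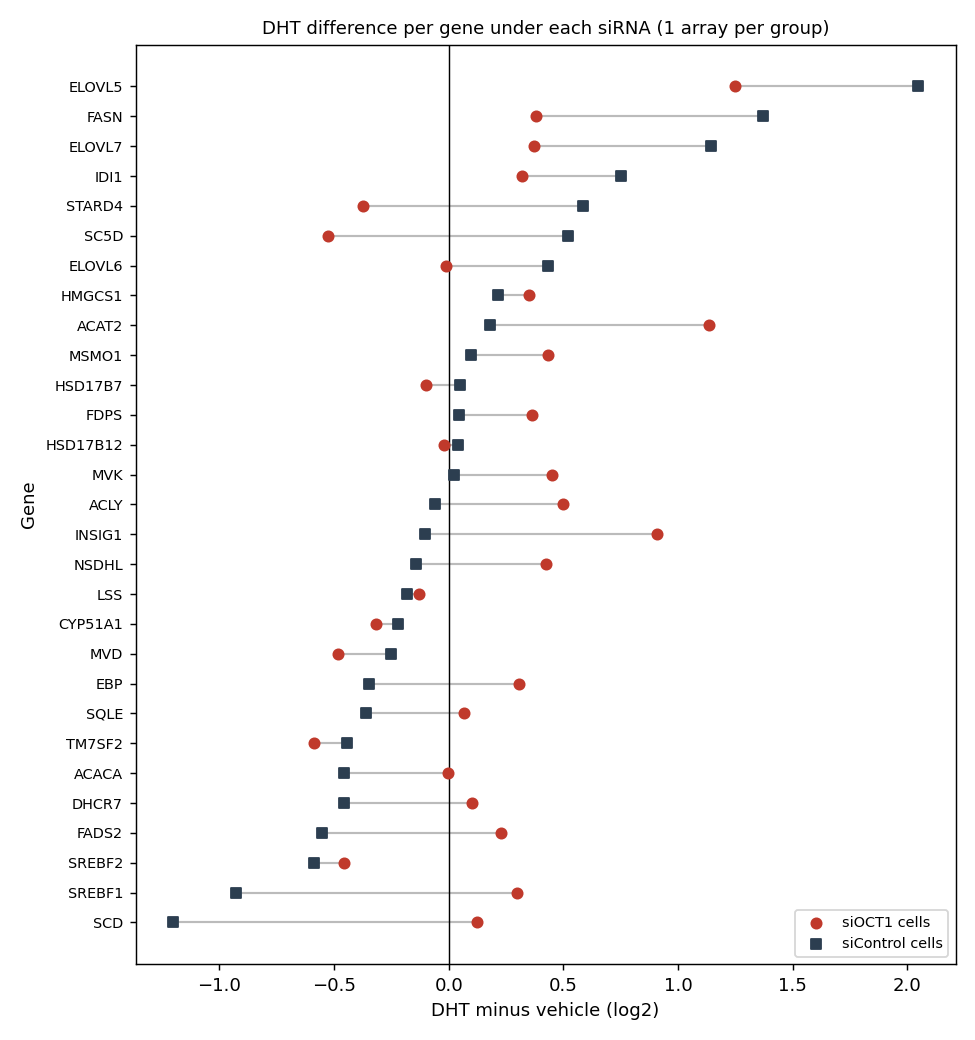
DHT minus vehicle (x axis, log2) for the 29 measured genes, with red circles for siOCT1 cells and dark squares for siControl cells, 1 array per group, ordered by the siControl value. ELOVL5 lies highest under both siRNAs, at 1.25 in siOCT1 cells and 2.05 in siControl cells, and SCD and SREBF1 lie below 0 only in siControl cells. The siOCT1 points of INSIG1 and MVK rest on a vehicle signal below background.

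Neighbouring genes of the pathways, from lists of 19 sterol and 30 fatty acid genes outside the set, were read in the same fit. Of the 15 sterol neighbours measured, 4 fell and 2 rose with siOCT1 (15.3% and 9.1% of all measured genes), with medians of -0.25 with DHT and -0.30 with vehicle. COQ2, which prenylates the ubiquinone ring, stood at 9.41 with DHT and 9.59 with vehicle in siOCT1 cells, against 11.19 and 11.41 in siControl cells (adjusted p = 0.00485). PMVK, the kinase after MVK, was at least 2.63-fold lower with vehicle and differed by -1.52 with DHT (adjusted p = 0.0122). INSIG2 was called lower as well (adjusted p = 0.0334), with all 4 values below background. RDH11, a retinal reductase, rose by 1.10 (adjusted p = 0.0186). SOAT1, which stores cholesterol as esters, stood at 12.03 with DHT and 14.04 with vehicle in siOCT1 cells, against 11.45 and 12.62 in siControl cells, and rose with siOCT1 (adjusted p = 0.0373).

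Of the 18 fatty acid neighbours measured, 6 fell with siOCT1 and none rose (15.3% and 9.1% of all measured genes), with medians of -0.43 with DHT and -0.65 with vehicle. ELOVL4, an elongase of very long chains, was at least 5.06-fold lower with DHT and at least 3.16-fold lower with vehicle (adjusted p = 0.00247), since both siOCT1 values lay below background. DBI, an acyl-CoA binding protein, fell with siOCT1 (-2.05) and rose with DHT (3.80) (adjusted p = 0.00318 and 0.00201). ELOVL2, an elongase of polyunsaturated chains, showed the same pair of changes. With DHT its signal was at least 2.77-fold higher in siOCT1 cells and 7.32-fold higher in siControl cells (adjusted p = 0.0356), and with siOCT1 it differed by -2.61 with DHT and was at least 2.32-fold lower with vehicle (adjusted p = 0.00869). ELOVL2 and ELOVL5 were thus both higher with DHT, and ELOVL2 alone of the pair fell with siOCT1. Whether their siOCT1 differences differ was not tested.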

How the data were processed

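Each group's total RNA was biotin-labelled by a whole-transcript protocol for its single array, per the labels. RMA and Affymetrix Expression Console are the tools named in the submitters' processing notes, and the authors deposited log2 signals. Versions and the genome build are not given in the sources used here. As RMA corrects background and gives all arrays 1 distribution, a shift shared by all genes is lost. The base of the logarithm was inferred from the values.

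Probe sets were named through the platform table (17709 with 1 symbol), keeping for each gene the probe set with the highest mean. Over the 8843 measured genes, siRNA and ligand were additive terms of a fit with limma 3.58.1 (R 4.3.3, lmFit, eBayes with trend). It had 1 residual degree of freedom beside 5.85 from the prior, and the threshold was a Benjamini-Hochberg adjusted p of 0.05. Only genes passing it are said to rise or fall. A pair with its dimmer value below background is given as a lower bound, the brighter value over that array's background. On simulated arrays of 8843 genes, 200 were changed and Gaussian noise had a standard deviation of 0.3. The siRNA fit recovered 54% of 2-fold and 100% of 4-fold changes, each with 2 false genes, and 100% of 8-fold changes with 11. The simulation gave every gene the same noise and changed genes equally in both ligand states. It also changed fewer genes than the 2158 called here, so these rates need not hold for the real arrays.

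All measured genes of the set were named, and of neighbouring genes up to 3 called per direction and list. The genes, lists, motifs and alternatives were chosen with earlier results of these arrays known. Alternatives were a 2-fold rule, other filters on dim genes, centring on positive controls or by loess, raising values to background, an offset of 32, a robust or untrended limma prior, and averaging probe sets. Loess and tables used statsmodels 0.14.6 and pandas 2.3.3 under Python 3.11.15.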

Additional observations from a re-analysis of the deposited data

Results flagged for a closer look

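By their values, 4 genes had a DHT difference with opposite signs under the 2 siRNAs and a change of at least 2-fold. With 1 array per group, the change was not tested. SCD stood at 0.13 in siOCT1 cells and -1.20 in siControl cells, a change of 1.33. SREBF1 stood at 0.30 in siOCT1 cells and -0.93 in siControl cells, a change of 1.23. INSIG1 entered by value only, at 0.91 in siOCT1 cells and -0.10 in siControl cells, a change of 1.01. Its siOCT1 vehicle value lay below background, so neither its sign nor its size in siOCT1 cells can be read, and lifting every value to the highest background made the change 0.10. SC5D stood at -0.53 in siOCT1 cells and 0.52 in siControl cells, a change of -1.05, and its siOCT1 difference accordingly had opposite signs as well, -0.32 with DHT and 0.73 with vehicle. Opposite signs with a change of at least 2-fold were found for 13.8% of the 29 genes, against 9.39% of all measured genes. The 13.8% stands for 4 genes and counts INSIG1, so no excess over all measured genes is read from it. By size alone, 35.5% of all measured genes and 65.2% of the negative controls changed their DHT difference by at least 1.5-fold.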

How the results depend on the processing

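No paired analysis was possible because each group holds 1 array, so no replicate numbers could serve as a block. The additive fit does compare the siRNAs within each ligand state. Of the 19 genes called lower with siOCT1, between 16 and 19 were called in 9 of 10 alternatives. In those 9, the share of all genes tested that was called lower ran from 5.9% (no filter) to 15.3% (averaged probe sets). With all values raised to the highest background, limma called 0 of the 19 and 0 of 8843 genes. Under an unadjusted p of 0.05 in limma lay 17 of the 29, with no share of all genes given. That fit holds genes at the same value on all arrays. With those left out, an alternative added after seeing the data, 18 were called (all but HSD17B7, adjusted p = 0.0545). There 11.9% of all genes tested were called lower. IDI1, HSD17B7 and ELOVL6 lost the call without trend, and MVD and HSD17B7 with no filter. Centring on the positive controls shifted the median siOCT1 difference of all genes with vehicle to 0.16, against -0.06, gave 1 gene called higher (TM7SF2), a median of -0.84 over the set with vehicle, and a median change of the DHT difference of -0.0762, with 4 genes positive and 7 negative. The DHT call of ELOVL5 was lost (0 of 29 higher) with no filter, without trend and in both raised-background fits. By role, the median siOCT1 difference became -1.09 for cytosolic fatty acid genes with no filter, -1.79 for mevalonate enzymes above background on all arrays, and -1.47 for regulators in both raised-background fits. With a 2-fold rule 3 genes, INSIG1 included, had a positive and 1 a negative change of the DHT difference. For neither this rule nor the centring on positive controls is a share of all genes given, so these counts have no background beside them. Medians of the set stayed below 0 for siOCT1 in every alternative run, from -1.19 to -1.12 with DHT and from -1.07 to -0.84 with vehicle. Signal over background limits MVK and INSIG1, which lay below it on 1 array each.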

Other observations

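The following 3 neighbouring genes were chosen after their values were seen. FABP5, a cytosolic fatty acid carrier, stood at 8.79 with DHT and, below background, at 6.98 with vehicle in siOCT1 cells, against 8.91 and 9.39 in siControl cells, giving a DHT increase of at least 2.63-fold in siOCT1 cells and a difference of -0.48 in siControl cells. DEGS1, the desaturase that finishes ceramide, stood at 13.08 with DHT and 11.34 with vehicle in siOCT1 cells, against 14.11 and 14.37 in siControl cells, and its DHT difference was 1.73 in siOCT1 cells and -0.26 in siControl cells. SOAT1 differed with DHT by -2.01 in siOCT1 cells and -1.18 in siControl cells (adjusted p = 0.0535 in the limma fit). Apart from that p, these values are single differences between arrays. How far the DHT difference changed between the siRNAs was not tested for any of the 3 genes.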
